A study of Mus musculus with 6 samples.

Results

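The 40 genes described here belong to homologous recombination, the Fanconi pathway and the DNA damage checkpoint, and were taken by symbol from the 41254 gene symbols of the expression table. By role, 12 of them sense breaks or act in the checkpoint, 19 act in strand exchange and the handling of its intermediates, and 9 belong to the Fanconi pathway. All 40 were found in the table and all 40 passed the filter on low counts. The study measured RNA after depletion of ribosomal RNA in DN3a thymocytes of adult C57BL/6 mice, comparing 3 wild-type libraries with 3 libraries of the genotype Tg_Cd2_GATA3, a transgene named for Cd2 and GATA3. DN3a cells are T cell precursors at the stage at which the T cell receptor beta genes are rearranged, before the division burst that follows a productive rearrangement. The labels give no treatment, no exact age, no number of animals per library and no number of founder lines, so that the p-values below measure the spread between these libraries, which may be technical in part.

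Fragments assigned to genes numbered 45469462 to 46985605 per wild-type library and 39022272 to 42016333 per transgenic library, and the 40 genes held between 0.236% and 0.281% of them. Levels in normalised CPM are counts scaled to the library size after TMM adjustment. Gata3 measured 49.1, 38.2 and 43.5 normalised CPM in wild-type replicates 1 to 3 and 58.6, 53.6 and 61.6 CPM in the transgenic replicates. The groups of Gata3 did not overlap, and edgeR fitted a log2 fold change of 0.41 (standard error, SE, 0.10; adjusted p = 0.170). RNA of Y-linked genes was present in wild-type replicate 1 and transgenic replicate 3 and nearly absent from the other 4 libraries. Xist RNA showed the reverse. Wild-type replicate 1 held only 29 Xist fragments and transgenic replicate 3 only 89, whereas each of the other 4 held at least 48599. Judged by this RNA, wild-type replicate 1 and transgenic replicate 3 were male and the other 4 libraries female. The 11 DN3 markers examined were all detected, with a sum between 6243 and 6679 CPM in wild-type libraries and between 6529 and 6777 CPM in transgenic ones. The sum covers differences in both directions. Without overlap between the groups, Il2ra was lower in transgenic libraries, at a log2 fold change of -0.17. Notch1 and Notch3 were higher without overlap, at 0.19 and 0.31. Over all genes, 10.1% were lower without overlap and 8.73% higher. Pax5 of B cells, Elane of granulocytes, Ncr1, Klrk1 and Eomes of natural killer cells and Pdgfra of stroma were at 0 in all 6 libraries. Other genes of those lists were present, with Cd79b, Lyz2, Nkg7, Pecam1 and Epcam at 16.3 to 144.1 CPM, and 0 genes of the lists were called.

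Homologous recombination copies the sister chromatid to mend a broken or stalled chromosome, and it works in cells that are replicating or have replicated their DNA. The MRE11 complex and ATM sense the break, ATR and CHEK1 hold the cell cycle, BRCA1, BRCA2 and their partners carry out the search for the matching strand, and the Fanconi proteins direct the repair of crosslinks between DNA strands. Developing T cells join the breaks made by the RAG recombinase by end joining, and ATM signals from those breaks as well. Many genes of homologous recombination are transcribed in step with S phase through E2F factors.

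Of the 18 genes with an E2F-type heptamer in a promoter window, 15 had a log2 fold change below 0. Of the 14 with a window but no heptamer, 10 did, and these 10 are not shown. From the 15, 5 were chosen for display. Fignl1, Brca1, Rad51ap1 and Fanci had separate groups and Chek1 had overlapping ones. Their promoter windows are shown, and beside them that of Trp53bp1, which had no heptamer and also overlapped between the groups. Each runs 5′ to 3′ on the gene's strand from 250 bases before to 50 bases after the RefSeq start, on build GRCm38.p6, and the capitals mark a heptamer of the E2F type, which is TTCCCGC or TTGGCGC or TTCGCGC or TTGCCGC, on either strand.
Fignl1: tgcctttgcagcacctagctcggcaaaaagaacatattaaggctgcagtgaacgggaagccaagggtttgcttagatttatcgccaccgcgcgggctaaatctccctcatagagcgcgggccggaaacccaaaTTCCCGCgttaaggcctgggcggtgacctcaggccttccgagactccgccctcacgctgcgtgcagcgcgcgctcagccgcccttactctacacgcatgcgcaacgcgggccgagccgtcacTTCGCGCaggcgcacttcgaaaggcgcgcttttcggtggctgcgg
Brca1: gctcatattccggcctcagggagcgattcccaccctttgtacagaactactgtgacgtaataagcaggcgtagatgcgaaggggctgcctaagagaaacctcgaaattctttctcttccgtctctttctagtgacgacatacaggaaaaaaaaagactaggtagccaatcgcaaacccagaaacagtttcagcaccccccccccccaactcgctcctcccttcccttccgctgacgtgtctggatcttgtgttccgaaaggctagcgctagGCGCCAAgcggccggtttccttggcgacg
Rad51ap1: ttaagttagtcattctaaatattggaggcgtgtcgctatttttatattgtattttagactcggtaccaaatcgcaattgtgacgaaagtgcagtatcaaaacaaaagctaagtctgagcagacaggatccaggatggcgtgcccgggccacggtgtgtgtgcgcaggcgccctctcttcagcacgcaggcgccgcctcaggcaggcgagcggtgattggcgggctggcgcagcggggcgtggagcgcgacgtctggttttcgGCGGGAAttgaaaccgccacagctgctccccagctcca
Chek1: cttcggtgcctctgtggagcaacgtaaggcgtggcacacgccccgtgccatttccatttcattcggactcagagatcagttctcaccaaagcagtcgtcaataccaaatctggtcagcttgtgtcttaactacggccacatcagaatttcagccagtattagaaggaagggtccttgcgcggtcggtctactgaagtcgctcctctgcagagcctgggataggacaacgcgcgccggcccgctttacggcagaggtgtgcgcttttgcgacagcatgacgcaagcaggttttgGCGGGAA
Fanci: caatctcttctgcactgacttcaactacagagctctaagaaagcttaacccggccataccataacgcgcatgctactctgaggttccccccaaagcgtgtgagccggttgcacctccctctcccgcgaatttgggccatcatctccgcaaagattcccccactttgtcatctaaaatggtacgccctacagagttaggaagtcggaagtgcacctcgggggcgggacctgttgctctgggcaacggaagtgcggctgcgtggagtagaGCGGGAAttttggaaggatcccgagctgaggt
Trp53bp1: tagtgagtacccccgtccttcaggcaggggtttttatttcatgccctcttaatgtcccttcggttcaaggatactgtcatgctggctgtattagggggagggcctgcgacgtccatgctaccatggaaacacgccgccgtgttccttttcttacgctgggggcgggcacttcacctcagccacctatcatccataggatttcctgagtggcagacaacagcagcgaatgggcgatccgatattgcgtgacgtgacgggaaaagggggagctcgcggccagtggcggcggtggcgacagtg

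The Fignl1 window lies at chr11:11808913-11809212 on the minus strand and holds heptamers at -117 to -111 and at 6 to 12 relative to the start, where base 1 is the first base transcribed. Brca1, at chr11:101551906-101552205 on the minus strand, holds 1 heptamer at 22 to 28. Rad51ap1, at chr6:126939538-126939837 on the minus strand, holds 1 at 13 to 19. In Chek1, at chr9:36726609-36726908 on the minus strand, the match lies at 44 to 50, at the end of the window. Fanci, at chr7:79392088-79392387 on the plus strand, has its match at 19 to 25. The Trp53bp1 window lies at chr2:121271358-121271657 on the minus strand. A position after the start was neither general among the lower genes nor confined to them. In Topbp1, Brca2, Bard1 and Blm, also lower at an unadjusted p under 0.05 by edgeR, the heptamers lie only upstream. They run from -208 in Bard1 to -123 in Topbp1. Atm, at a log2 fold change of -0.01, has its heptamer at 16 to 22, and 1 window of Rad51c has one at 13 to 19.

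Of the 40 genes, 32 had at least 1 RefSeq window, and 18 of those 32 (56.2%) held a heptamer in one, against 10.9% of all 27025 symbols with a window and 9.57% of all 32851 windows of the same length. Heptamers on opposite strands can overlap, as they do in Topbp1. The share was 5 of 9 among break sensing and checkpoint genes, 8 of 15 among strand exchange genes and 5 of 8 among Fanconi genes. In the DNA replication genes, examined for comparison, it was 69.2% of 26 genes, and in the genes of G2 and mitosis 18.8% of 16 genes. Among end joining genes it was 30.8% of 13 genes. The GATA hexamers, which are AGATAA or AGATAG or TGATAA or TGATAG and were searched on both strands, were found in 4 of the 32 genes (12.5%), against 33% of all symbols and 29.8% of all windows. A match describes the letters of the window and was not tested as a binding site.

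Per transcript length, in FPKM (fragments per kilobase and per library size), these genes were of moderate abundance in wild-type cells. Their median was 14.8 FPKM, and 26 of the 40 reached 10 FPKM. The FPKM of a gene is the sum over its annotated transcripts, and short ones can hold much of it. A transcript of 715 bases held 33.8% of the wild-type sum of Slx4, and one of 829 bases held 94% of that of Rad51b. For Topbp1 a transcript of 5224 bases held 77.5%. Topbp1, an activator of ATR, stood highest at 98.1 ± 4.45 FPKM (SD, n = 3), and was the only gene whose wild-type libraries all lay above those of the next gene in the order. Below it came Chek1, the effector kinase of ATR, at 37.4 ± 5.52 FPKM, Fignl1, an AAA ATPase of homologous recombination, at 35.2 ± 5.50 FPKM, and Mre11a, the nuclease of the MRE11 complex, at 32.4 ± 4.55 FPKM. Their libraries overlapped, so that no order among these 3 is given. The lowest levels were 4.33 ± 0.489 FPKM for Fancb, a subunit of the Fanconi core complex, 5.03 ± 0.386 FPKM for Brca2, a mediator of strand exchange, and 5.42 ± 0.460 FPKM for Mdc1, a scaffold on damaged chromatin. Break sensing and checkpoint genes had a median of 20.8 FPKM, with 11 of 12 at 10 FPKM or more, while the medians of the strand exchange and Fanconi genes were 10 and 10.7 FPKM.

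**Figure D1:**
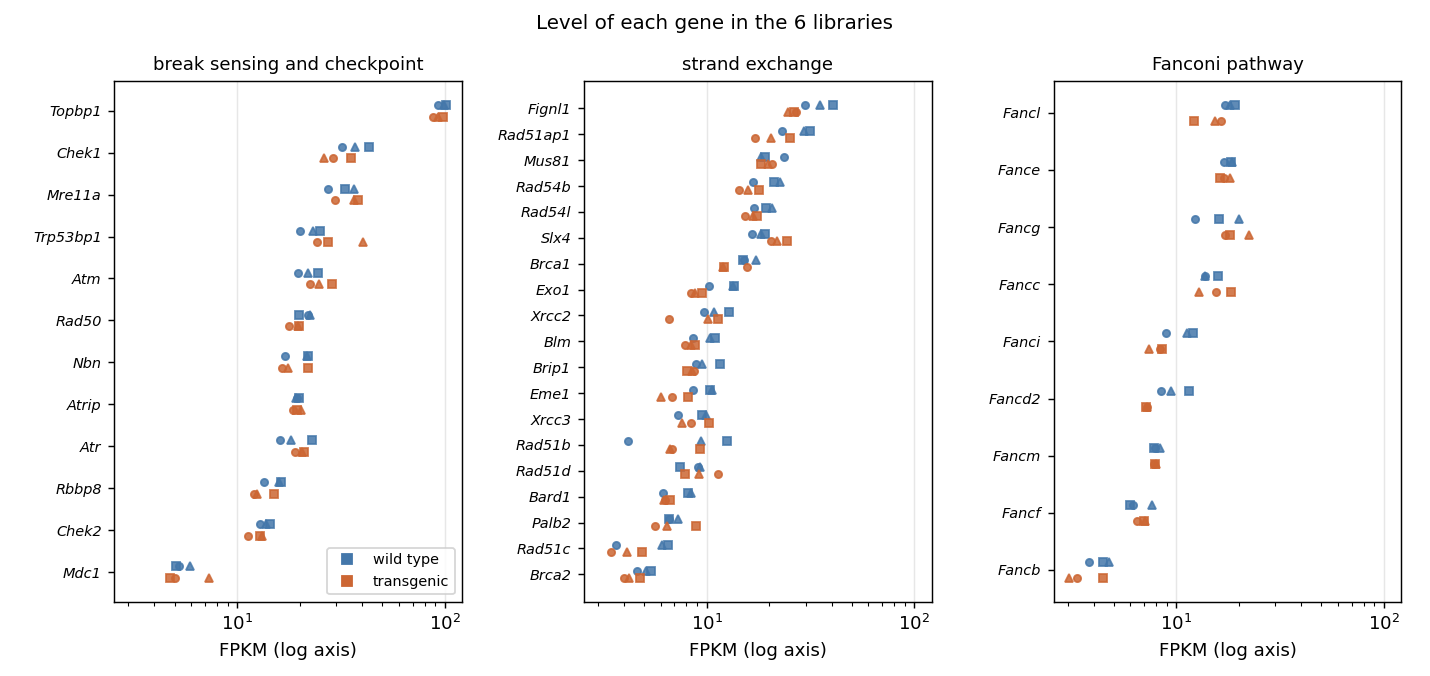
FPKM of each gene in each library on a log axis, one panel per group of genes, with wild-type libraries in blue, transgenic libraries in orange and the 3 replicates as circle, square and triangle. Topbp1 lies apart from all others near 100 FPKM, and most other genes lie between about 4 and 40 FPKM.

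The comparison of transgenic with wild-type libraries asks whether the level of these transcripts in DN3a cells differs with the transgene. With edgeR's quasi-likelihood test on the estimated counts, 0 of the 40 genes passed an adjusted p of 0.05, where 0.0136% of the 14653 genes tested did (2 genes, both higher). At an unadjusted p under 0.05, 16 of the 40 were lower in transgenic cells and 0 higher, against 7.7% of all genes lower and 5.71% higher. The count of 16 became 9 when wild-type replicate 2 or 3 was dropped and 10 when transgenic replicate 3 was. No share over all genes is given for those fits, so these changes are not read as particular to the 40. The 3 transgenic libraries lay below all 3 wild-type libraries in 15 genes, where 10.1% of all genes did, and above them in 1 gene, Slx4, where 8.73% of all genes did. The fitted log2 fold change was below 0 in 32 of 40 genes, with a median of -0.18 beside 0.00 over all genes. The largest difference in size, that of Fignl1, was a log2 fold change of -0.50. In bulk RNA, fewer cells of a type and less RNA per cell cannot be told apart.

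**Figure D2:**
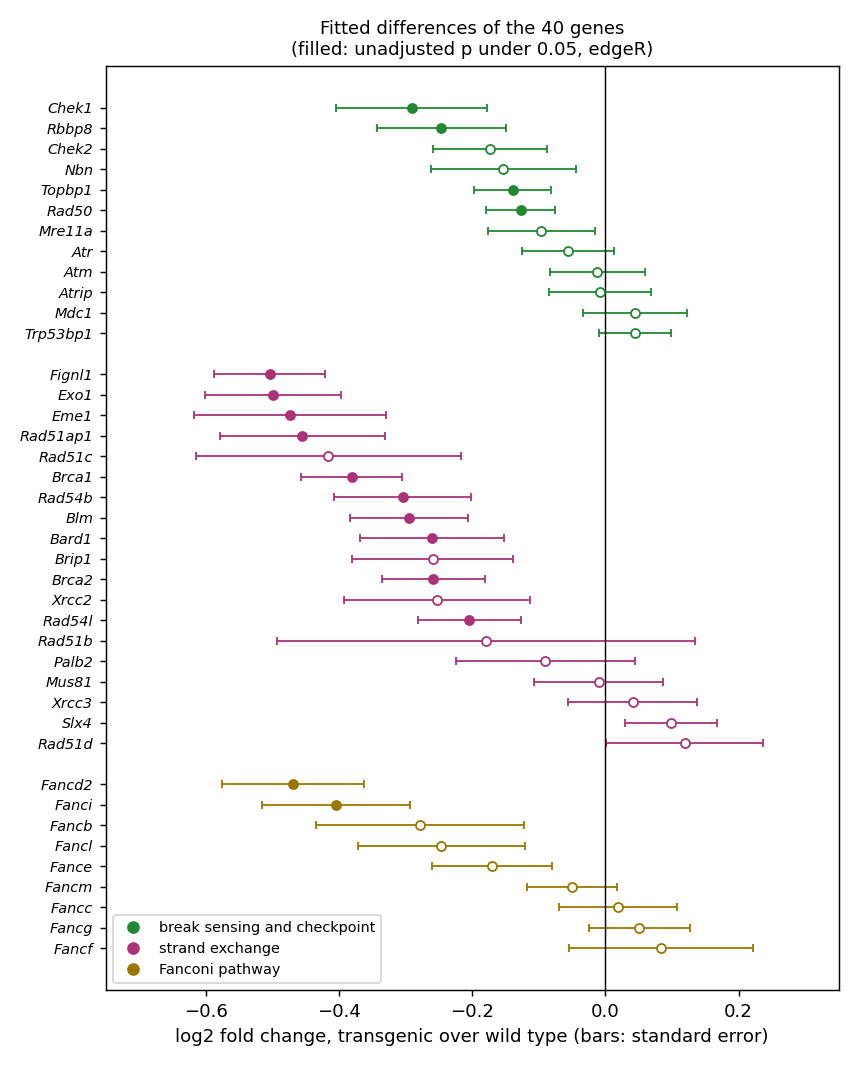
Fitted log2 fold change of each of the 40 genes, transgenic over wild type, with its standard error, ordered within the 3 groups; filled points have an unadjusted p under 0.05 by edgeR. The strand exchange genes reach -0.50, while the break sensing and checkpoint genes lie between -0.29 and 0.04.

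The break sensing and checkpoint genes had the median closest to 0 of the 3 groups, a log2 fold change of -0.11, which was -0.07 when either wild-type replicate 3 or transgenic replicate 1 was dropped, and -0.04 with limma on log2(FPKM + 0.1). None of the 12 was called, and 4 were lower at an unadjusted p under 0.05 by edgeR (Chek1, Rbbp8, Rad50 and Topbp1), beside 7.7% of all genes. Chek1 (chromosome 9, 36708482 to 36727065, minus strand) measured 60.4, 73.0 and 73.7 CPM in wild-type replicates 1 to 3 and 54.5, 65.0 and 49.7 CPM in the transgenic replicates. Wild-type replicate 1 lay inside the transgenic range, and the log2 fold change of Chek1 was -0.29 (SE 0.11; edgeR, adjusted p = 0.308). Topbp1 (chromosome 9, 103305215 to 103350428, plus strand), whose transcript was the most abundant, had 440.4, 467.3 and 477.7 CPM against 401.7, 433.3 and 423.6 CPM. Its groups did not overlap, but the difference was small, with a log2 fold change of -0.14 (SE 0.06; edgeR, adjusted p = 0.331).

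The kinases at the head of the 2 checkpoint branches showed small differences. Atm, which answers double-strand breaks, stood at 191.6, 220.4 and 229.3 CPM in wild-type and 212.2, 218.6 and 205.0 CPM in transgenic libraries. Its log2 fold change was -0.01, with a 95% interval of -0.17 to 0.15. Atr, which answers single-stranded DNA at stalled forks, measured 95.4, 112.2 and 106.0 CPM against 95.5, 101.4 and 104.8 CPM, and its interval was -0.21 to 0.10. Both kinases overlapped between the groups, and with limma on log2(FPKM + 0.1) their sign turned, to 0.20 for Atm and 0.09 for Atr. Atrip, the partner of ATR, had 66.5, 58.6 and 64.6 CPM against 61.7, 65.8 and 61.2 CPM, a log2 fold change of -0.01. Chek2, the effector kinase of ATM, measured 29.2, 31.6 and 31.0 CPM in wild-type and 25.6, 27.4 and 28.3 CPM in transgenic libraries. Its groups did not overlap, at a log2 fold change of -0.17 (SE 0.09; edgeR, adjusted p = 0.430).

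Among the genes that handle the broken end, Rad50, the structural subunit of the MRE11 complex, had 129.3, 132.9 and 142.8 CPM in wild-type and 121.9, 124.5 and 124.6 CPM in transgenic libraries. Mre11a of the same complex had 90.1, 97.5 and 107.0 CPM against 83.7, 96.9 and 95.1 CPM. The libraries were apart for Rad50, at a log2 fold change of -0.13 (SE 0.05), and overlapped for Mre11a, at -0.10 (SE 0.08), which became 0.11 with limma on log2(FPKM + 0.1). For Nbn, the complex's link to ATM, the fit gave -0.15 (SE 0.11). Rbbp8, which starts the resection of ends, measured 57.2, 65.9 and 68.3 CPM against 51.5, 59.8 and 50.1 CPM, a log2 fold change of -0.25 (SE 0.10; edgeR, adjusted p = 0.308). Trp53bp1, which restrains resection, and Mdc1 were the genes of this group with values above 0. Trp53bp1 had 157.0, 143.9 and 153.1 CPM against 151.4, 155.3 and 161.3 CPM, at a log2 fold change of 0.04 and an interval of -0.08 to 0.17, while limma on log2(FPKM + 0.1) gave 0.39 (adjusted p = 0.507). Mdc1 had 38.3, 43.1 and 41.0 CPM against 41.5, 42.0 and 42.6 CPM, also at 0.04. For both genes wild-type and transgenic values were interleaved.

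The strand exchange genes had the median farthest from 0, at -0.26. Of the 19, 16 had a log2 fold change below 0 and 10 were lower at an unadjusted p under 0.05 by edgeR, where 7.7% of all genes were. In 9 of the 19 every transgenic library lay below every wild-type library, where 10.1% of all genes did so. Fignl1 (chromosome 11, 11787431 to 11808962, minus strand) had 82.3, 102.0 and 98.7 CPM in wild-type and 65.7, 68.0 and 65.8 CPM in transgenic libraries. The transgenic libraries of Fignl1 were close together and all below the lowest wild-type library, and the transgenic mean was 0.705 times the wild-type mean, at a log2 fold change of -0.50 (SE 0.08; edgeR, adjusted p = 0.135). Exo1 (chromosome 1, 175880581 to 175913489, plus strand), the exonuclease of long-range resection, had 65.7, 84.4 and 84.7 CPM against 54.1, 58.5 and 53.5 CPM. Its groups did not overlap either, at a ratio of means of 0.708 and a log2 fold change of -0.50 (SE 0.10; edgeR, adjusted p = 0.159). Exo1 had no window among the promoter sequences.

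Brca1 (chromosome 11, 101488764 to 101551955, minus strand), which promotes resection, measured 101.1, 102.5 and 121.4 CPM in wild-type and 81.9, 86.6 and 81.1 CPM in transgenic libraries. The groups were apart, at a log2 fold change of -0.38 (SE 0.08; edgeR, adjusted p = 0.159). For Bard1, its partner in the ubiquitin ligase, the fit gave -0.26 (SE 0.11), but its wild-type replicate 1 at 32.8 CPM lay within the transgenic range of 31.5 to 33.1 CPM. Brca2 had 57.3, 62.7 and 64.0 CPM against 49.2, 54.3 and 50.3 CPM, with no overlap and a log2 fold change of -0.26 (SE 0.08; edgeR, adjusted p = 0.213). Palb2, which joins BRCA1 to BRCA2, was at -0.09 (SE 0.13), and the BRCA1-bound helicase gene Brip1 had -0.26 (SE 0.12), both with overlapping groups.

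Genes of strand pairing differed among themselves. Rad51ap1 (chromosome 6, 126923050 to 126939587, minus strand), a stimulator of strand pairing, measured 48.2, 61.9 and 58.8 CPM in wild-type and 36.3, 47.6 and 39.3 CPM in transgenic libraries. Its highest transgenic library lay just under its lowest wild-type library, at a log2 fold change of -0.46 (SE 0.12; edgeR, adjusted p = 0.189). The motor proteins of strand exchange, Rad54l and Rad54b, had log2 fold changes of -0.20 (SE 0.08) and -0.30 (SE 0.10), and their groups did not overlap. Of 5 related genes that support strand exchange, Rad51c had -0.42 (SE 0.20), Xrcc2 -0.25 (SE 0.14), Rad51b -0.18 (SE 0.31), Xrcc3 0.04 (SE 0.10) and Rad51d 0.12 (SE 0.12). All 5 overlapped between the groups, and Rad51b was rare, at 3.16 to 8.48 CPM. Exons of Rad54b are shared with Fsbp on the same strand over 35.8% of their length, and those of Rad54l with Lrrc41 on the opposite strand over 15.4%, so that reads of these pairs may be divided in more than one way.

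The genes that resolve joined DNA molecules were divided as well. Blm, the helicase that dissolves double junctions, had 46.2, 55.6 and 55.2 CPM in wild-type and 41.7, 43.6 and 42.7 CPM in transgenic libraries. The groups did not overlap for Blm, at a log2 fold change of -0.30 (SE 0.09; edgeR, adjusted p = 0.214). Eme1, the partner of the nuclease MUS81, lay between 26.7 and 32.4 CPM in wild-type libraries and between 17.5 and 26.0 CPM in transgenic ones, without overlap, at -0.47 (SE 0.14). Mus81 itself measured 33.5, 35.5 and 30.3 CPM against 30.9, 32.0 and 35.8 CPM, with interleaved values and a 95% interval of -0.23 to 0.21 around a log2 fold change of -0.01. Slx4, the scaffold of several nucleases, was the gene whose transgenic libraries (60.1 to 65.1 CPM) all lay above the wild-type libraries (57.1 to 59.8 CPM), at 0.10 (SE 0.07), or 0.31 with limma on log2(FPKM + 0.1) (adjusted p = 0.391).

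**Figure D3:**
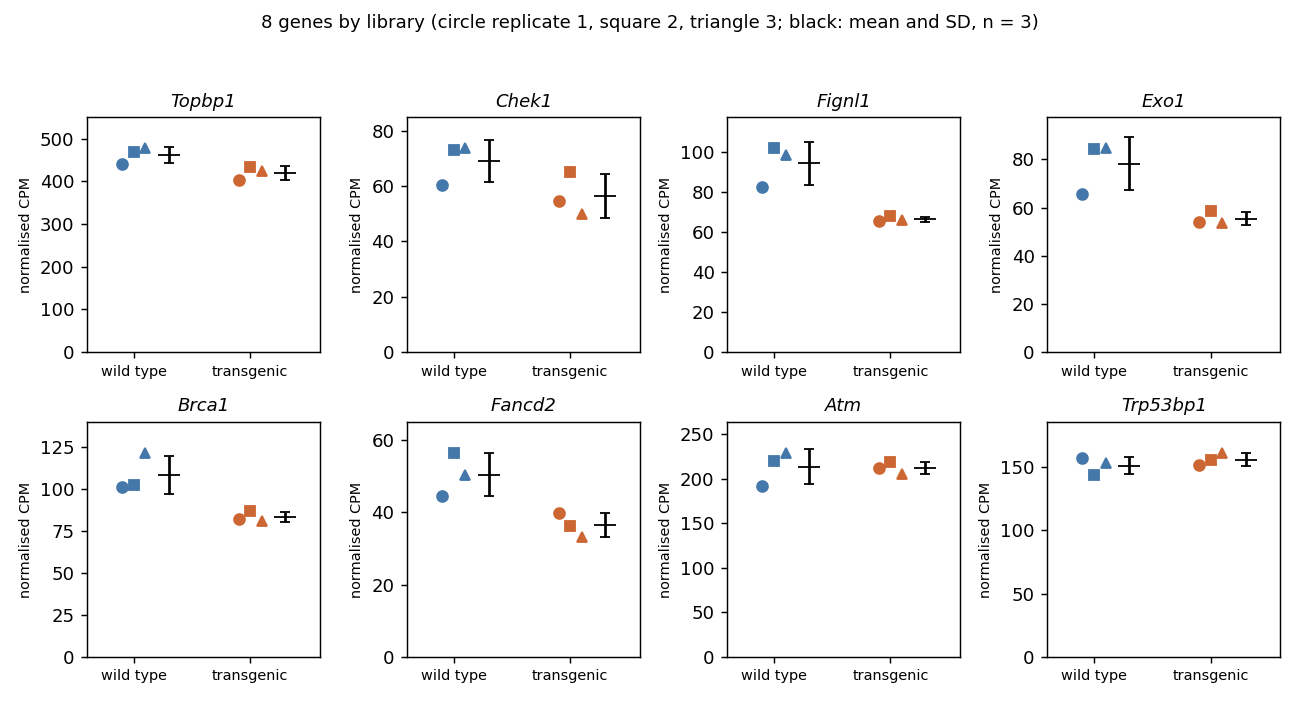
Normalised CPM of 8 genes in each library, on axes starting at 0, with the mean and SD of each group (n = 3) in black beside the points. Fignl1, Exo1, Brca1 and Fancd2 show separate groups, Topbp1 shows separate groups with a small difference, and Chek1, Atm and Trp53bp1 overlap.

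In the Fanconi pathway the 2 largest differences were those of Fancd2 and Fanci, which form the pair that is ubiquitinated at a crosslink. Fancd2 (chromosome 6, 113531682 to 113597017, plus strand) measured 44.6, 56.4 and 50.2 CPM in wild-type and 39.9, 36.2 and 33.2 CPM in transgenic libraries. Its groups did not overlap, and its log2 fold change was -0.47 (SE 0.11; edgeR, adjusted p = 0.159). Fanci (chromosome 7, 79391929 to 79450264, plus strand) had 44.5, 58.1 and 55.0 CPM against 41.1, 42.0 and 36.1 CPM. Its groups were also apart, at -0.40 (SE 0.11; edgeR, adjusted p = 0.192). Exons of Polg on the opposite strand cover 16.0% of the exon length of Fanci, and no label or header says whether strand was used in counting. The same holds for Trp53bp1 with Tubgcp4 (15%), Fancf with Gas2 (15%), Fancc with Gm16133 (16.4%) and Fancl with Vrk2 (13.7%), while Atrip shares 16.0% with Trex1 on its own strand.

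The subunits of the core complex, the ubiquitin ligase that acts on that pair, gave smaller or opposite values. Fance, which binds FANCD2, had 26.6, 30.5 and 30.7 CPM in wild-type and 25.7, 26.1 and 26.2 CPM in transgenic libraries, apart by little, at -0.17 (SE 0.09). Fancl, the catalytic subunit, had 20.3, 24.1 and 21.2 CPM against 21.1, 16.1 and 18.04 CPM, which overlapped, at -0.25 (SE 0.13). Fancb, on the X chromosome, had 10.04, 10.4 and 12.2 CPM against 8.70, 10.5 and 7.70 CPM, also overlapping, at -0.28 (SE 0.16). Values close to or above 0 were those of Fancm, which anchors the complex on DNA, at -0.05 (SE 0.07), and of the core subunits Fancc at 0.02 (SE 0.09), Fancg at 0.05 (SE 0.08; 0.27 with limma on log2(FPKM + 0.1)) and Fancf at 0.08 (SE 0.14). Fancc measured 37.1, 36.5 and 36.7 CPM in wild-type and 41.0, 36.3 and 34.5 CPM in transgenic libraries, with the wild-type libraries inside the transgenic range. Over the 9 Fanconi genes the median was -0.17 (-0.07 with limma on log2(FPKM + 0.1)). Of the 9, 2 were lower at an unadjusted p under 0.05 by edgeR, beside 7.7% of all genes. Lower values without overlap between the groups were found for 3 (Fancd2, Fanci and Fance), beside 10.1% of all genes.

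The heat map of all 40 genes sets wild-type replicates 2 and 3 apart from the other libraries. Among the wild-type libraries, replicate 1 was also the only one with Y-linked RNA, and a link between the 2 features was not tested. Wild-type replicate 1 was the lowest of the wild-type libraries in 32 of the 40 genes (80.0%), against 37.5% of all genes, and lay within the transgenic range in 16 of the 40, beside 6809 of all 14653 genes. The median difference between wild-type replicate 1 and the mean of the other two was -0.19 on the log2 scale, beside 0.00 over all genes. It was -0.22 for the strand exchange genes, -0.16 for the break sensing and checkpoint genes and -0.15 for the Fanconi genes. Without wild-type replicate 1 the median log2 fold change between the genotypes was -0.37 for strand exchange, -0.16 for break sensing and checkpoint and -0.23 for Fanconi genes.

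**Figure D4:**
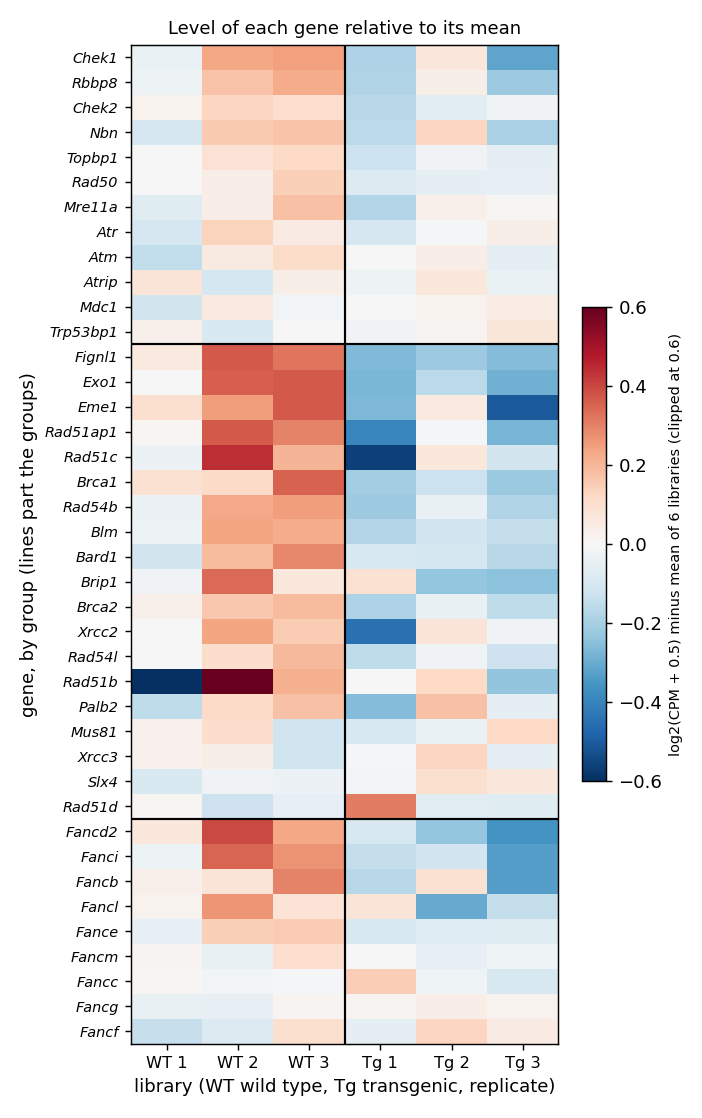
Log2(CPM + 0.5) of each gene minus its mean over the 6 libraries, red above and blue below the mean and clipped at 0.6; horizontal lines part the 3 groups of genes and the vertical line parts wild-type from transgenic libraries. Red is densest in wild-type replicates 2 and 3 and in the strand exchange genes.

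Whether any gene was called depended on the fit. DESeq2 on the same genes called 7 members lower (Brca1, Rad51ap1, Fignl1, Exo1, Eme1, Fancd2 and Fanci), where 3.46% of the genes it adjusted were called lower. With wild-type replicate 1 left out, edgeR called 8 lower (Brca1, Bard1, Rad51ap1, Fignl1, Blm, Exo1, Fancd2 and Fanci), with 2.32% of all genes called lower. A term for Y-linked RNA gave 5 (Brca1, Fignl1, Exo1, Fancd2 and Fanci; background 1.4%), and leaving out both libraries with that RNA gave 4 (Fignl1, Exo1, Fancd2 and Fanci; background 1.32%). Testing all genes without a filter on low counts gave 3 (Brca1, Fignl1 and Exo1; background 0.485%). A robust dispersion prior gave Fignl1 alone (background 0.0955%), as did the fit that kept the loci whose estimate had failed (background 0.129%). The other 9 alternatives called 0 of the 40.

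Fignl1 was thus called in 7 of 16 alternatives, with adjusted p from 4.27e-05 to 0.492 over the edgeR, DESeq2 and limma fits. Exo1 was called in 5, and Brca1, Fancd2 and Fanci in 4 each. No break sensing or checkpoint gene was called in any of the 16. The largest share of all genes called lower in these fits was 3.46%, with DESeq2. For a group of 12 genes, a count of 0 is near that share and does not set the group apart. Direction held more widely than the call. In all 16 alternatives, which share the same libraries, 25 of the 40 genes stayed below 0 and 4 (Trp53bp1, Slx4, Fancf and Fancg) above 0, while 11 took both signs. Two-sided tests were used throughout.

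Genes of other pathways were examined in the same libraries. The DNA replication genes had a median log2 fold change of -0.29, with 26 of 29 lower at an unadjusted p under 0.05 and 22 without overlap between the groups. The genes of G2 and mitosis had a median of -0.48, with 20 of 20 lower at an unadjusted p under 0.05. End joining genes, which serve the RAG breaks, had a median of -0.08, with 3 of 17 lower and 1 higher. The strand exchange median of -0.26 lay near that of the replication genes, and the break sensing median of -0.11 nearer that of end joining. Differences between these lists were not tested.

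By library, the mean centred level of the strand exchange genes was -0.04, 0.22 and 0.18 in wild-type replicates 1 to 3 and -0.17, -0.03 and -0.16 in the transgenic replicates, on the log2 scale. The same levels were 0.03, 0.22 and 0.20 against -0.18, -0.08 and -0.18 for DNA replication, and -0.03, 0.40 and 0.39 against -0.20, -0.11 and -0.46 for G2 and mitosis. Wild-type replicate 1 was therefore the lowest wild-type library in each of these lists. Among markers of the stages after DN3a, 6 of 7 were below 0 and 0 were called, and their sum lay between 168.4 and 188.5 CPM in wild-type and 161.7 and 188.5 CPM in transgenic libraries. Cd27, at a log2 fold change of 0.16, held 82.4% of that sum; without it the sum lay between 34.9 and 43.6 CPM in wild-type libraries and between 13.1 and 30.1 CPM in transgenic ones. The transgenic libraries lay below all wild-type libraries in 3 of the 7, where 10.1% of all genes did. Of these, Cd4 had 6.90, 6.76 and 7 CPM against 4.86, 3.30 and 2.97 CPM. Cd8a had 6.9, 6.8 and 10.8 CPM against 5.5, 2.8 and 1.4 CPM. Cd8b1 had 7.2, 10.7 and 8.9 CPM against 5.7, 3.1 and 3.3 CPM. The sum of early progenitor markers lay between 65.2 and 88.2 CPM in wild-type and 83.3 and 103.1 CPM in transgenic libraries. Kit held 70.3% of it. Without Kit the sum lay between 18.1 and 28.1 CPM and between 24.4 and 31.1 CPM in the same order. Of these 7 markers, 2 were below 0 and 0 were called. The only one whose groups did not overlap, Lyl1, went against the sum and was lower in transgenic libraries. It had 3.33, 2.13 and 3.54 CPM against 1.41, 1.89 and 1.65 CPM, at a log2 fold change of -0.86. The part that dividing cells, other thymocyte stages or Y-linked RNA have in the values of the repair genes was not tested.

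**Figure D5:**
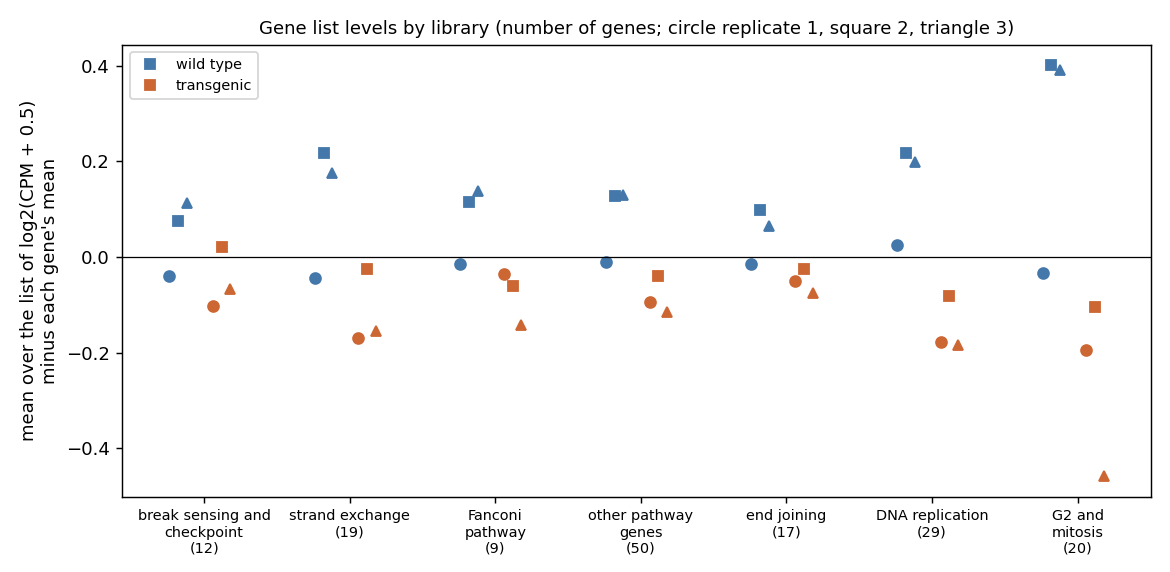
Mean over each list of log2(CPM + 0.5) minus each gene's own mean, by library, with wild-type libraries in blue, transgenic libraries in orange and the replicates as circle, square and triangle. Wild-type replicates 2 and 3 lie highest in every list, and the libraries spread most widely for G2 and mitosis.

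A wider list of the same pathways held 54 further genes, of which 50 could be tested. Of these 41 were below 0, and the median was -0.15. At an unadjusted p under 0.05 by edgeR, 15 were lower and 0 higher, beside 7.7% and 5.71% of all genes. With edgeR 0 of the 50 passed the adjusted threshold, and DESeq2 called 9 lower, where it called 3.46% of all genes lower. Most of these genes, like most of the 40, thus lay below 0.

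Among the 32 genes with a promoter window, the 18 with an E2F heptamer had a median log2 fold change of -0.26 and 9 of them were lower at an unadjusted p under 0.05. The 14 without had a median of -0.07, and 2 of them were lower. The 8 genes with no window had a median of -0.25, and 5 of them were lower at an unadjusted p under 0.05. Over all genes 7.7% were lower by the same edgeR test. Exceptions ran both ways, since Atm, Mdc1, Fancf and Fancg held a heptamer at log2 fold changes between -0.01 and 0.08, and Eme1 held none at -0.47. The difference between these sets of genes was not tested.

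The authors' deposited table compares transcripts instead of genes. It lists 238 transcripts of the 40 genes, from 1 to 19 per gene, and tests 195 of them. According to the authors' deposited table, 1 of these was marked significant, the single transcript of Exo1, at a log2 fold change of -0.48 and a q-value of 0.0400, with group values of 12.4 FPKM in wild-type and 8.92 FPKM in transgenic cells. Over the whole of the authors' deposited table, so marked were 111 of 44416 tested transcripts. Per the authors' deposited table, 7 tested transcripts of the 40 genes had p under 0.05, and all 7 were lower in transgenic cells (3.59% of the 195, beside 1.45% of all tested transcripts lower and 1.26% higher). For 31 of the 40 genes the most abundant transcript had a log2 fold change below 0 in the authors' deposited table.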

How the data were processed

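Total RNA from 6 libraries was sequenced. Per the submitters' processing notes, TopHat2 and Cuffdiff were used with build mm10; for their versions, the annotation, the strand setting and the read length, nothing is stated in the labels or headers. The deposited table gives estimated counts of fragments and FPKM for each transcript and library, as the file headers name them. Per the file headers, it also holds the authors' log2 fold changes, p-values and q-values per transcript; these were only quoted.

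The estimated counts of all transcripts of a symbol were added and the sum was rounded. The 197 genes with a transcript of failed status (466 transcripts in all) were left out, none of them among the 40. edgeR 4.0.16 in R 4.3.3 was run with TMM scaling, a filter (minimum count 10, minimum total 15) and a quasi-likelihood test of genotype over 6 libraries and 14653 genes, with Benjamini-Hochberg adjustment at 0.05. The common biological coefficient of variation was 19.5%. CPM values use the scaled library sizes; levels use log2(CPM + 0.5). The 95% intervals come from the fitted SE. The 16 alternatives included DESeq2 1.42.0 and limma 3.58.1 on log2(FPKM + 0.1) or log2(FPKM + 0.5) for genes of at least 1 FPKM. The test scripts were tested on simulated data.

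Replicate numbers were checked for pairing by the correlation of same-numbered deviations. The members, lists and alternatives were chosen with earlier results of these data known. Values in every library are given for the 4 genes of smallest p and the one nearest 0 in each group, the highest and lowest by FPKM, and 12 genes chosen by name. The single markers of other stages or cell types were named after their values were seen. Fanca of the wider list was at a failed locus. Positions are from GENCODE M21 (GRCm38), and promoter windows are RefSeq's.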

Additional observations from a re-analysis of the deposited data

How the results depend on the processing

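The number of the 40 genes called was 0 with edgeR on all libraries, where 0.0136% of all genes were called. In brackets is the share of all adjusted genes called lower. It was 7 with DESeq2 (3.46%), 3 with no filter on low counts (0.485%) and 1 with a robust dispersion prior (0.0955%). A term for Y-linked RNA gave 5 (1.4%), leaving out the 2 libraries that hold it 4 (1.32%) and keeping failed loci 1 (0.129%). Over the fits that leave out 1 replicate the number ran from 0 to 8, the 8 without wild-type replicate 1 (2.32%). Genes lower at an unadjusted p under 0.05 numbered 16, but 8 and 7 with limma on log2(FPKM + 0.1) and log2(FPKM + 0.5). With 1 replicate left out they numbered 9 to 21. They numbered 9 when wild-type replicate 2 or 3 was dropped and 10 when transgenic replicate 3 was. No share over all genes is given for these fits, so the changes in the count are not read as particular to the 40. The Fanconi median moved from -0.17 to -0.072 and -0.070 in the limma fits. In those fits Atm took values of 0.204 and 0.201, Atr 0.087 and 0.085, and Mre11a 0.111 and 0.109 on the log2 scale. Without the libraries with Y-linked RNA, Atrip was at 0.048 and Mdc1 at -0.011. Leaving out one replicate gave -0.085 to 0.041 for Atm, -0.117 to 0.001 for Atr, -0.057 to 0.031 for Atrip, -0.075 to 0.047 for Mus81 and -0.053 to 0.071 for Fancc. The cause of these shifts was not tested. Same-numbered libraries had correlations of 0.18, 0.138 and 0.002, so the numbers were not taken as pairs, and not every library was closest to its own number; with the replicate block edgeR called 0 of the 40 and 14 genes in all, with a smallest adjusted p among the 40 of 0.0521. Rad51b, at 144 to 394 fragments per library, had an SE of 0.31, while Fancf, at 361 to 437 fragments, had an SE of 0.14. The cause of the wide error of Rad51b was not tested.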

Other observations

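The CCAAT box, the letters CCAAT on either strand, stood in a promoter window of 19 of the 32 repair genes that have one (59.4%), against 41.1% of all symbols with a window and 37.4% of all windows. By group it was found for 5 of 9 break sensing and checkpoint genes, 9 of 15 strand exchange genes and 5 of 8 Fanconi genes. In the comparison lists it was found for 87.5% of G2 and mitosis genes, 69.2% of DNA replication genes and 46.2% of end joining genes with a window. Xrcc3, a strand exchange gene whose log2 fold change was 0.04, had 6 such boxes in its window, and Brip1, at -0.26, had 3. These are counts of letters, and no relation to the RNA levels was tested.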
